A study of Mus musculus with 6 samples.

Results

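The opioid system of the hippocampus was described here through 7 genes among the 16060 gene rows of the deposited table. They were chosen by symbol, with earlier results of these data known. They comprise 3 peptide precursors (Penk, Pdyn and Pnoc) and 4 receptors (Oprm1, Oprk1, Oprd1 and Oprl1), and each had 1 row. Hippocampal RNA came from adult male C57BL/6 mice, with each library taken as 1 mouse. The 3 mice of the control group received saline intraperitoneally, and the 3 mice of the MA group received methamphetamine (MA), a psychostimulant, in doses raised every week. All mice went through an open field test and an elevated plus maze test and were sacrificed directly afterwards, so the libraries of both groups also carry the effect of testing. No gene in the table checks which mice received MA. The sources used here conflict on the direction of the immediate early genes, so whether the columns carry the right group label could not be settled, and an exchange of the labels would turn the sign of every difference given here. Control and MA therefore mean the libraries so labelled throughout. Values are those of the deposited table, log2 of RPKM (reads scaled to gene length and library size) with an apparent offset of 1. Differences are given as MA mean minus Control mean on this scale, which understates the change of genes with low levels.

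Opioid peptides are cut from large precursor proteins, stored in dense-core vesicles and released when neurons fire strongly. Enkephalins, from Penk, act mainly on the delta and mu receptors (Oprd1 and Oprm1). Dynorphins, from Pdyn, act mainly on the kappa receptor (Oprk1), and nociceptin, from Pnoc, acts on its own receptor (Oprl1). All 4 receptors couple to inhibitory G proteins, which lower cAMP, open inwardly rectifying potassium channels and close presynaptic calcium channels. In the hippocampus, dentate granule cells hold dynorphin and enkephalin in the mossy fibres, while nociceptin and part of the enkephalin belong to GABAergic interneurons.

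The coding sequences show how many opioid peptides a single transcript of each precursor encodes. In the GENCODE M21 transcripts the codons of the opioid core, Tyr-Gly-Gly-Phe in any synonymous spelling and in frame, occurred 7 times in Penk and 3 times in Pdyn, each time directly after a pair of codons for basic residues, where convertases cut. Pnoc held no such core and had a single copy of Phe-Gly-Gly-Phe, the start of nociceptin, also after a basic pair. Of 21789 protein-coding genes, 71 (0.326%) held at least 1 Tyr-Gly-Gly-Phe core and 4 held 2 or more, and the 7 copies in Penk were the highest number. The Phe-Gly-Gly-Phe core was found in 107 genes (0.491%). Of the 7 copies in Penk, 6 were followed by a methionine codon and 1 by a leucine codon, and all 3 copies in Pdyn were followed by leucine. A representative stretch of each kind is given below, 5′ to 3′ on the coding strand, with the core codons in capitals and the basic pair before them.
Penk, copy 1, Met-enkephalin, chr4:4134325-4134354: aagaagTACGGAGGCTTCatgaaacggtac
Penk, copy 6, Leu-enkephalin, chr4:4133932-4133961: aagaggTATGGGGGCTTCctgaagcgcttt
Pdyn, copy 2, dynorphin A, chr2:129688121-129688150: aaacgcTATGGGGGCTTCctgcggcgcatt
Pnoc, copy 1, nociceptin, chr14:65404869-65404898: aaaaggTTTGGGGGCTTCaccggggcccgg
Each of these stretches lies within 1 exon on the minus strand of GRCm38. One Penk transcript therefore encodes more copies of an opioid core than one Pdyn or Pnoc transcript, which transcript levels do not take into account.

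The libraries carried the marker genes of the labelled tissue. Among dentate granule cell markers, Prox1 lay between 3.26 and 3.67 and C1ql2 between 5.37 and 5.89 in all 6 libraries, and the pyramidal cell marker Neurod6 lay between 5.74 and 6.49. Of 6 tested pyramidal markers, 0 passed the adjusted threshold. Groups without overlap were found for 3 of them, and for 17.5% of all tested genes. Of these 3 markers, Neurod6 and Wfs1 were lower in MA (differences -0.43 and -0.30) and Grik4 was higher (0.35). Markers of the choroid plexus, the epithelium that makes cerebrospinal fluid, were higher in every library labelled MA for 10 of 10 genes, and 5 of them passed the adjusted threshold, which are Aqp1, Clic6, Slc4a5, Kl and Folr1. The summed back-transformed level of the 10 genes was between 66.3 and 422 in the control libraries and between 1784 and 5093 in the MA libraries. Most of this sum is Ttr, which had a difference of 4.09 (limma adjusted p = 0.0887). Its value of 12.30 in MA replicate 3 is the highest value that any library holds. The other markers had differences between 1.27 (Prlr) and 2.10 (Folr1). All 8 immediate early genes on a list chosen with earlier results known were lower in the libraries labelled MA, 6 of them past the adjusted threshold. This direction rests on the column labels, whose doubt is given above, and it is not read as an effect of MA. The library of MA replicate 3 stood apart from the other MA libraries. Relative to the mean of all libraries, its tested genes with an exonic length of 205 to 2818 bases had a median deviation of 0.10 and those of 6960 to 41155 bases one of -0.12, whereas in the other libraries both medians stayed between -0.061 and 0.046. The read totals are not in the table, so the depth is unknown and no counting interval is given.

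**Figure D1:**
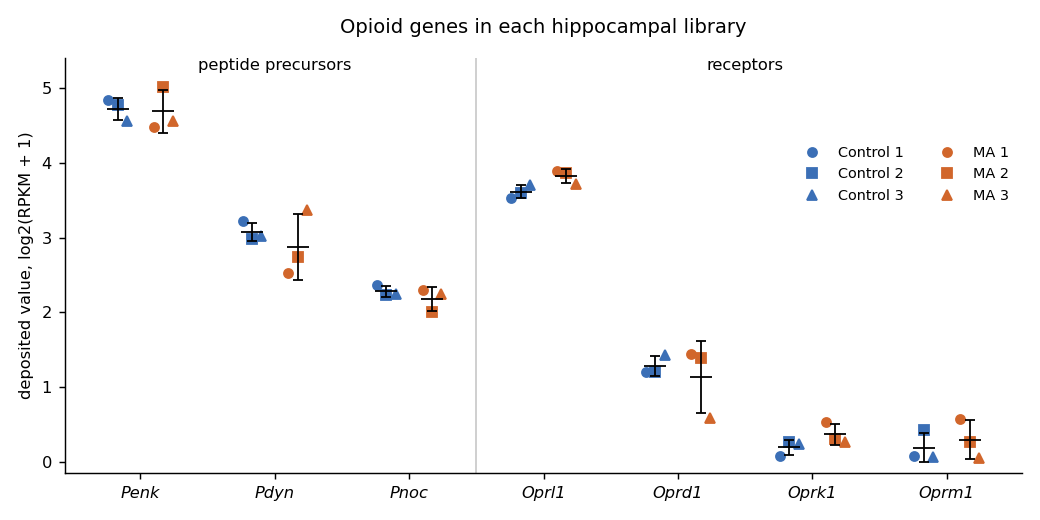
Deposited value of each opioid gene, log2(RPKM + 1), in the 3 control (blue) and 3 MA (orange) libraries, with the group mean and SD in black and symbols for replicate numbers. The order of levels is shared by the groups, Oprl1 is the member whose groups do not overlap, and MA replicate 3 lies apart for Pdyn and Oprd1.

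The precursor Penk had the highest level of the 7 genes and lay above 76.4% of all tested genes. Back-transformed to RPKM, its mean over the 6 libraries was 25.4 ± 3.90 (SD, n = 6). Next came Oprl1 with 12.2 ± 1.32, Pdyn with 7.01 ± 1.67, Pnoc with 3.71 ± 0.384 and Oprd1 with 1.35 ± 0.457 RPKM. This order of 5 genes held in each of the 6 libraries, and the closest pair of neighbours, Pdyn above Pnoc, was separated by at least 0.23 on the log2 scale in every library. Oprk1, at 0.219 ± 0.126 RPKM, and Oprm1, at 0.195 ± 0.186 RPKM, came last in all libraries. The levels of these last 2 receptors did not differ beyond their spread, since Oprk1 was the higher one in 4 of 6 libraries and their log2 gap was 0.037 ± 0.14. RPKM is per gene length, so these levels can be set beside each other.

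Among the precursors, Penk made up between 63.4% and 78.4% of the summed RPKM of the 3 genes, Pdyn between 14.1% and 26.1% and Pnoc between 7.47% and 13.0%. The nociceptin receptor Oprl1 held between 84.1% and 94.4% of the summed RPKM of the 4 receptors, and Oprd1 between 3.87% and 12.1%. The highest share of Oprl1 and the lowest share of Oprd1 both came from MA replicate 3. Oprm1 and Oprk1 made up at most 2.95% and 2.68% of the receptor sum, both in MA replicate 1.

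No difference between the groups was detected for any of the 7 genes at the adjusted threshold. The test (limma, with Benjamini-Hochberg adjustment over all 13321 genes above a low-level limit of 0.5 RPKM in at least 3 libraries) called 35 genes, or 0.263% of those tested, and between 0 and 257 genes with 1 library left out, the highest number without MA replicate 3. Of the 7 members, 5 passed that limit and 0 were called, in these fits as well. At an unadjusted p-value under 0.05, which 10.4% of tested genes reached (4.99% with MA higher and 5.46% with MA lower), the count of members was also 0. Groups without overlap, in which each MA library was above or each was below all control libraries, were found in 17.5% of the tested genes (7.32% with MA higher and 10.2% with MA lower) and in 1 of the 5 members, Oprl1, which was higher in MA. In bulk tissue, fewer cells of a type and less RNA per cell cannot be told apart. The median difference of the 5 tested members was -0.10, against -0.010 over all tested genes.

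**Figure D2:**
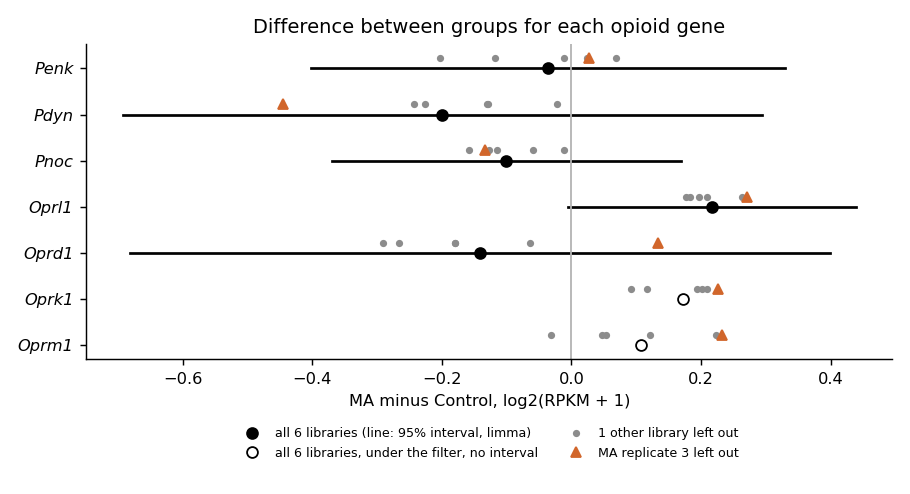
Difference of MA minus Control on the log2(RPKM + 1) scale for each opioid gene (black, with the 95% interval from limma for the 5 tested genes), and the difference after leaving out 1 library (grey, or an orange triangle for MA replicate 3). All 5 intervals include 0, and leaving out MA replicate 3 moved Pdyn to -0.45 and Oprd1 to 0.13.

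Penk (ENSMUSG00000045573), the enkephalin precursor, lies on chromosome 4 of GRCm38 from 4133531 to 4138819 and has 3 exonic stretches. Its values were 4.84, 4.77 and 4.56 in control replicates 1, 2 and 3, and 4.48, 5.02 and 4.56 in MA replicates 1, 2 and 3. MA replicate 2 was the highest and MA replicate 1 the lowest of all libraries, so the MA libraries enclosed the control libraries. The difference was -0.036 (standard error 0.16, limma adjusted p = 0.959), with a 95% interval from -0.40 to 0.33, or a ratio from 0.757 to 1.26, and without MA replicate 3 it was 0.027. The exact two-sided permutation test gave p = 0.9, where 0.1 is the smallest p that 3 against 3 libraries allow. The noncoding gene A830012C17Rik on the other strand shares 233 exonic bases with Penk, and the sources do not state whether counting used strand, so reads from these bases cannot be assigned to either gene.

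Pdyn (ENSMUSG00000027400), the dynorphin precursor, lies on chromosome 2 from 129686565 to 129699844 with 5 exonic stretches and no overlapping gene. The control libraries held 3.22, 2.99 and 3.02, and the MA libraries 2.52, 2.74 and 3.37. MA replicates 1 and 2 were below all control libraries, and MA replicate 3 was above all of them. The SD was 0.12 in the control group and 0.44 in the MA group. The difference was -0.20 (standard error 0.21, limma adjusted p = 0.805), with a 95% interval from -0.69 to 0.29. Without MA replicate 3 it was -0.45, with an unadjusted p of 0.00635 and a limma adjusted p of 0.0902, still over the threshold. Without MA replicate 1 it was -0.022. With the libraries corrected for exonic length the difference was -0.19. The 7 dentate granule cell markers, which label a main source of Pdyn, all had a negative difference. Their median was -0.145, and 0 reached an unadjusted p-value under 0.05 (limma). Their summed level was between 125 and 169 RPKM in the control and between 128 and 152 RPKM in the MA libraries. The sum weighs highly expressed genes most, and its 128 in MA replicate 3 went with Calb1 (6.21, 6.10 and 5.11 in the MA libraries). Within the MA group Prox1 and Dock10 were also lowest in replicate 3. Plk5 and C1ql2 were highest there, and Dsp and Glis3 lay between. The part of granule cells in the spread of Pdyn was not tested.

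Pnoc (ENSMUSG00000045731), the nociceptin precursor, lies on chromosome 14 from 65400673 to 65425472 with 4 exonic stretches. Its values were 2.36, 2.23 and 2.25 in the control libraries and 2.30, 2.001 and 2.25 in the MA libraries. MA replicate 2 was the lowest of all libraries, and the other MA libraries lay among the control libraries. The difference was -0.10 (standard error 0.12, limma adjusted p = 0.823), with a 95% interval from -0.37 to 0.17, the narrowest among the precursors, and without MA replicate 3 it was -0.13. Of the 11 interneuron markers, which label the cells that make nociceptin, 0 reached an unadjusted p-value under 0.05, 9 had a negative and 2 a positive difference, and the median was -0.10.

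Oprl1 (ENSMUSG00000027584), the nociceptin receptor, lies on chromosome 2 from 181715016 to 181720985 with 7 exonic stretches and no overlapping gene. It was at 3.53, 3.60 and 3.71 in the control libraries and at 3.90, 3.87 and 3.72 in the MA libraries. Every MA library was above every control library, with MA replicate 3 only just above control replicate 3. The means were 3.61 ± 0.088 and 3.83 ± 0.095 (SD, n = 3 each), a difference of 0.22 (standard error 0.095), or a ratio of 1.16 with a 95% interval from 0.996 to 1.36. The limma p-value was 0.0543 before and 0.486 after adjustment, and the exact two-sided permutation test gave 0.1, the smallest p it can give. Leaving out single libraries gave differences between 0.18 and 0.27, none past the adjusted threshold, with the highest value and an unadjusted p of 0.0147 (limma adjusted p = 0.126) without MA replicate 3. The unadjusted p was 0.0401 with the length correction. Thalamic markers, whose tissue lies next to the hippocampus, had a summed level of 60.5 and 74.9 RPKM in MA replicates 1 and 2 and of 25.8 in MA replicate 3, against 24.3 to 32.3 in the control libraries. The same MA replicates 1 and 2 held the highest values of Oprl1, and the part of thalamic tissue in this order was not tested.

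The gap between a receptor and its precursor was followed in 4 ligand and receptor pairs. Oprl1 exceeded Pnoc on the log2 scale by 1.17, 1.37 and 1.46 in the control libraries and by 1.60, 1.87 and 1.48 in the MA libraries, so that the groups did not overlap. The gap differed by 0.32 between the groups (exact two-sided permutation test, p = 0.1, the smallest possible, and 0.4 after Benjamini-Hochberg adjustment over the 4 pairs). For Penk over Oprd1, Penk over Oprm1 and Pdyn over Oprk1 the groups overlapped, with changes of the gap of 0.11, -0.14 and -0.37 and exact permutation p-values of 0.9, 0.8 and 0.4.

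Oprd1 (ENSMUSG00000050511), the delta receptor, lies on chromosome 4 from 132110726 to 132144486 with 3 exonic stretches. The control libraries held 1.20, 1.20 and 1.43, and the MA libraries 1.44, 1.39 and 0.59. MA replicate 3 was far below the other 5 libraries, and MA replicates 1 and 2 lay close to the highest control library. The difference was -0.14 (standard error 0.23, limma adjusted p = 0.888), with a 95% interval from -0.68 to 0.40, and without MA replicate 3 it was 0.13. The exonic length of Oprd1 is 4021 bases, in the range of 2820 to 4503 bases where the median deviation of MA replicate 3 was 0.0053. With the length correction the difference was -0.13. The part of exonic length in the low value of MA replicate 3 was not tested.

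The mu receptor Oprm1 and the kappa receptor Oprk1 did not reach 0.5 RPKM in any library and did not enter the limma test over 13321 genes. Without the low-level limit, limma gave adjusted p-values of 0.876 for Oprm1 and 0.597 for Oprk1. Oprm1 (ENSMUSG00000000766), on chromosome 10 from 6758506 to 7038198 with 22 exonic stretches, was at 0.080, 0.42 and 0.068 in the control and at 0.57, 0.27 and 0.046 in the MA libraries. MA replicate 1 was the highest and MA replicate 3 the lowest of all libraries, so the groups overlapped (exact two-sided permutation test, p = 0.7, n = 3 each). Oprm1 shares 96 exonic bases with genes on the other strand, of which Ipcef1 has a row in the table. Oprk1 (ENSMUSG00000025905), on chromosome 1 from 5588466 to 5606131 with 3 exonic stretches, was at 0.080, 0.27 and 0.23 in the control and at 0.53, 0.31 and 0.26 in the MA libraries. MA replicates 1 and 2 were above all control libraries and MA replicate 3 was between them, with an exact permutation p of 0.2 (two-sided, n = 3 each). On the RPKM scale Oprk1 averaged 0.145 ± 0.0775 in the control and 0.293 ± 0.132 in the MA libraries, a ratio of 2.02 between levels that are both low. The depth is unknown, and a difference of this size could not be told from the spread of these libraries.

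The genes most like each tested member across the 6 libraries were listed by Pearson's r, as a description, since 6 values and 13320 candidates give high coefficients readily. For Penk they were Nmnat3 (r = 0.994), Krt15 (0.974) and Camkmt (0.969), and 9 genes exceeded 0.95. For Pdyn they were Anks3 (0.997), Dph2 (0.996) and Zfp956 (0.995), with 112 genes over 0.95, and for Pnoc they were Appl2 (0.998), Abca8a (0.990) and Cript (0.975), with 9. Oprd1 was followed most closely by Rgs4 (0.998), Paqr8 (0.998) and Luzp2 (0.997) and by 357 genes over 0.95, and in Oprd1 itself the low value of MA replicate 3 sets that library apart. Oprl1 was followed by Nr2f2 (0.995), Wdr6 (0.991) and Keap1 (0.990), with 99 genes over 0.95.

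Around the 7 genes, 5 lists of the wider pathway were read from the same test, and 1 of their 52 tested genes passed the adjusted threshold. This gene was Ace, which encodes a dipeptidase that can cut enkephalins and is known for making angiotensin II. Ace was at 1.33, 1.76 and 2.11 in the control and at 3.15, 3.41 and 3.40 in the MA libraries, and the groups were well separated. Its difference was 1.59 (standard error 0.20, limma adjusted p = 0.0332, with a range of 0.00688 to 0.162 over the alternatives). A pseudocount of 0.1 (adjusted p = 0.0513) or testing without the low-level limit (0.0770) ended the call, and so did leaving out any library other than MA replicate 3, with adjusted p-values from 0.0729 to 0.162. Ace is also a gene of the choroid plexus. The summed choroid plexus level, most of it Ttr, was higher in all MA libraries as given above, from 1784 to 5093 against 66.3 to 422 RPKM. The part of that tissue in the rise of Ace was not tested.

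**Figure D3:**
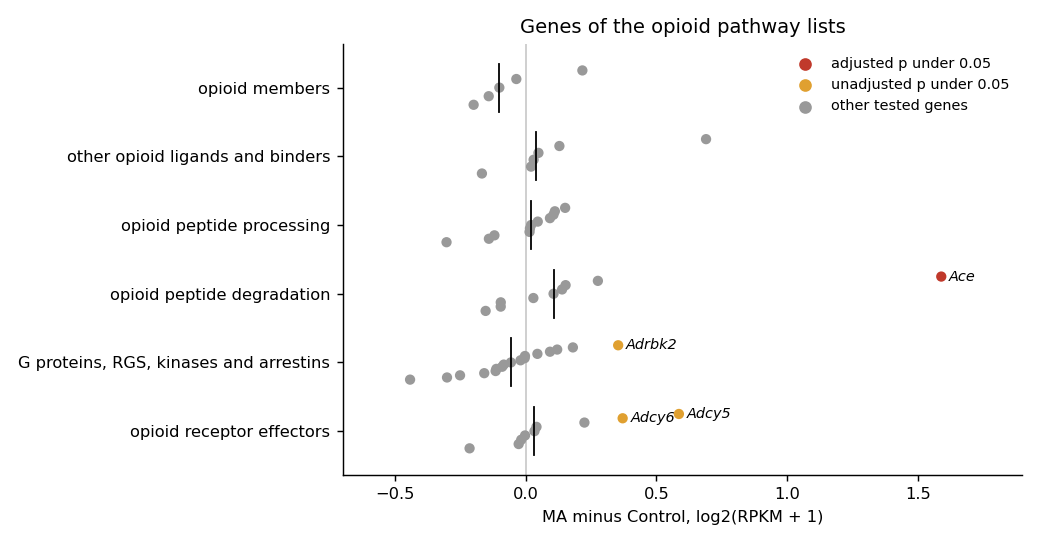
Difference of MA minus Control, log2(RPKM + 1), for every tested gene of the opioid genes and of the 5 pathway lists, with the median of each list as a black bar. Ace is the gene past the adjusted threshold (red), and Adcy5, Adcy6 and Adrbk2 reached an unadjusted p-value under 0.05 (orange).

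Among the other degrading enzymes 0 of 8 passed the test. Ece2, an endothelin-converting enzyme that can also process neuropeptides, had a difference of 0.28 (limma adjusted p = 0.521) with overlapping groups. The median of the 9 degrading enzymes, Ace included, was 0.11. Mme, or neprilysin, the main enkephalin-degrading peptidase, was low, between 0.60 and 1.19, with a difference of 0.11.

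Of the enzymes and helpers that process opioid precursors, 0 of 11 passed either threshold. Their median difference was 0.021. Pcsk1n, whose product proSAAS inhibits a prohormone convertase, was at 8.67 ± 0.10 and 8.82 ± 0.15 (SD, n = 3 each). The convertase gene Pcsk1 was at 1.95 ± 0.22 and 1.64 ± 0.46, with adjusted p-values of 0.669 and 0.715 for these genes (limma). The second convertase, Pcsk2, lay between 5.33 and 5.80 in all libraries, and Cpe, the carboxypeptidase that trims the peptide ends, between 10.17 and 10.87.

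Of the 17 tested G protein, RGS, receptor kinase and arrestin genes, 0 passed the adjusted threshold. Only 1 reached an unadjusted p-value under 0.05, which 10.4% of all tested genes reached. This 1 gene was Adrbk2, the older symbol of G protein-coupled receptor kinase Grk3, with 3.63, 3.96 and 3.91 in the control and 4.27, 4.29 and 3.99 in the MA libraries. Its groups did not overlap, and the difference of 0.35 had a limma adjusted p of 0.413. Rgs14, an RGS protein of hippocampal area CA2, had a difference of -0.44 (limma adjusted p = 0.503) with overlapping groups. The genes of the inhibitory G proteins themselves, Gnai1, Gnai2, Gnai3, Gnao1 and Gnaz, had differences between -0.16 and 0.045.

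Of 9 tested effector genes, Adcy6 and Adcy5, adenylyl cyclases that opioid receptors inhibit through G proteins, reached an unadjusted p-value under 0.05 and not the adjusted threshold. Over all tested genes, 10.4% reached an unadjusted p-value under 0.05. Adcy6 was at 2.78, 2.75 and 2.82 in the control and at 3.20, 3.21 and 3.06 in the MA libraries, a difference of 0.37 (standard error 0.092, limma adjusted p = 0.238). Adcy5 was at 3.06, 3.51 and 3.47 in the control and at 4.14, 4.12 and 3.53 in the MA libraries, a difference of 0.59 (standard error 0.20, limma adjusted p = 0.370). Neither gene had overlapping groups, and both passed the adjusted threshold when limma's sample quality weights were used. That setting called 586 of the 13321 tested genes, against 35 without the weights. As with Oprl1, MA replicates 1 and 2 were the highest libraries for both, and these also had the highest thalamic sums. Striatal markers were also read because Penk and Adcy5 are abundant in striatum. Of the 7 tested, 0 passed the adjusted threshold, 5 had a positive and 2 a negative difference, and the median was 0.15. Syndig1l was higher in every MA library than in any control library (difference 0.30, limma adjusted p = 0.350), Ppp1r1b had a difference of 0.34 with its highest value in MA replicate 3, and the defining receptor genes Drd1 and Drd2 stayed between 0.40 and 1.11. The part of striatal tissue in these results was not tested. The potassium channel subunits Kcnj3, Kcnj6 and Kcnj9 had differences of -0.017, -0.21 and 0.041, and Kcnj5 was under the low-level limit.

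Among 6 other opioid ligands and binders, 0 passed either threshold, with a median difference of 0.040. Pomc, the precursor of beta-endorphin, carries 1 opioid core by the same search and was at 1.98, 2.25 and 2.58 in the control and at 1.93, 4.15 and 2.80 in the MA libraries. MA replicate 2 was far above the other 5 libraries, and the limma adjusted p was 0.694. The 7 markers of the hypothalamus, where Pomc neurons lie, summed to between 4.77 and 5.47 RPKM in the control libraries and between 6.16 and 6.75 in the MA libraries, with the highest sum in MA replicate 2. Of these, Trh was higher in all MA libraries, at 1.09, 1.42 and 0.57 against 0.18, 0.31 and 0.23, with the highest value in MA replicate 2, while the other 6 had overlapping groups, and Hcrt and Oxt were at 0 in MA replicate 2. Of the 7, 5 were under the low-level limit, and the part of hypothalamic tissue in the value of Pomc was not tested. Ackr3, a scavenger receptor for opioid peptides, was at 2.85, 2.69 and 2.64 in the control and at 2.51, 2.61 and 2.56 in the MA libraries, a difference of -0.17 without overlap of the groups (limma adjusted p = 0.624).

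**Figure D4:**
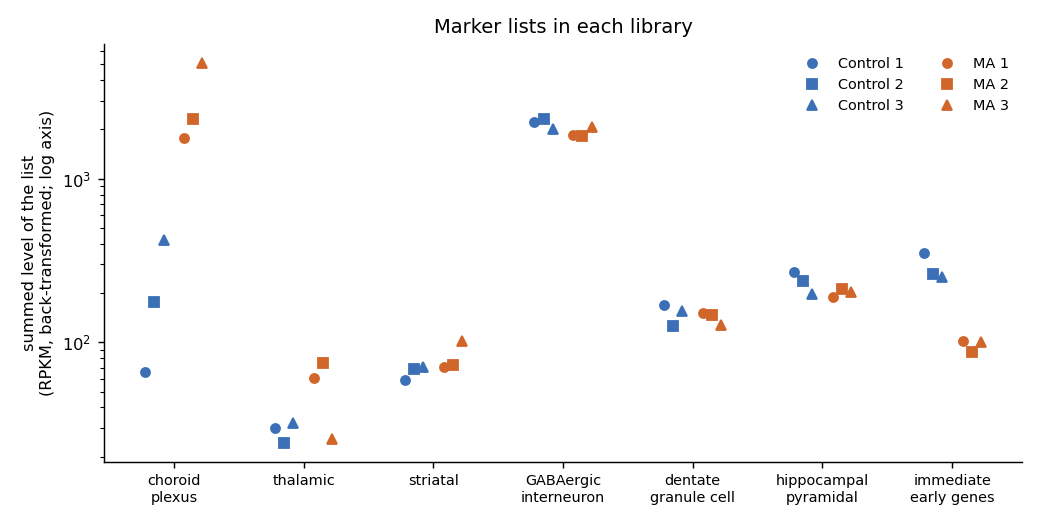
Summed back-transformed level (RPKM, log axis) of 7 marker lists in each library, with control in blue and MA in orange. The choroid plexus sum, most of it Ttr, is higher in all MA libraries. The thalamic sum is higher in MA replicates 1 and 2, and the sum of the immediate early genes is lower in all MA libraries. Each sum weighs highly expressed genes most.

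The sums over the marker lists weigh highly expressed genes most, so they do not measure the amount of a cell type. Interneuron markers summed to between 2021 and 2328 RPKM in the control and between 1826 and 2057 in the MA libraries. Most of this sum came from Cck and Sst. Striatal markers summed to between 58.8 and 70.5 RPKM in the control and between 70.2 and 102 in the MA libraries, most of it from Ppp1r1b. In the 11 lists of cell types and neighbouring tissues other than the choroid plexus, 0 of 71 tested genes passed the adjusted threshold in limma. An unadjusted p-value under 0.05 was reached by 9 of the 71, and by 10.4% of all tested genes. The 8 immediate early genes, which neuronal activity induces, had a median difference of -1.44, with the doubt about the labels given above, and summed to between 250 and 350 RPKM in the control and between 87.6 and 102 in the MA libraries.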

How the data were processed

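RNA-seq values of 6 hippocampal libraries were used. According to the paper's methods, read pairs were mapped by the authors with Hisat2, assigned to genes with featureCounts and scaled by gene length to FPKM, whereas the submitters' processing notes name Bowtie 0.12.2 with mm8 and mm9. The deposited table is named as RPKM, but its values are on a log2 scale with an apparent offset of 1 and share 1 highest value in all libraries, neither of which the sources describe. Base 2 was read from the length-weighted sum of the back-transformed values, which no other base brought near its expected size. Depth is unknown. Coordinates, transcripts and exonic lengths are those of GENCODE M21 (GRCm38). They serve for locations, the search for opioid cores, the reading of the log base and the comparisons and correction by exonic length.

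The deposited values were tested with limma 3.58.1 in R 4.3.3 (eBayes with a trend) without covariates, and single values with exact permutation tests. The low-level limit of 0.5 RPKM in at least 3 libraries left 13321 genes. Each library was taken as a single mouse, since the paper gives n = 3 per group and the labels give only group and number. The p-values measure the spread between these libraries only. By rule, the named genes were the 7 members, the genes of each pathway list with an unadjusted p-value under 0.05 (the 2 with the smallest p where there were fewer), marker genes past the adjusted threshold or needed to check the tissue, and the 3 genes most correlated with each tested member. Mme, Pcsk2, Cpe, the G protein and potassium channel genes were added for their roles. Members and lists were chosen with earlier results of these data known. Alternatives were median centring, a pseudocount of 0.1, no filter, sample quality weights, eBayes without the trend, the replicate number as a block, leaving out each library, and a correction for exonic length (loess, span 0.3) chosen after seeing the data.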

Additional observations from a re-analysis of the deposited data

How the results depend on the processing

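No opioid gene passed the adjusted threshold under any of the 13 alternatives, though Oprm1 and Oprk1 were tested with limma only with no filter. Of the 83 recomputed differences, 74 were counted as kept. For the 5 tested members this meant only the same sign, since none was called in any fit. For Oprm1 and Oprk1 it also meant a shift smaller than their SD within groups. Testing with no filter, eBayes without the trend and the replicate block cannot change a difference, only its test. The differences kept under these settings were therefore fixed in advance. The count does not measure how close the values stayed. The difference of Pdyn kept its sign in all 13 alternatives, these settings included, and ran from -0.45 to -0.022. The difference of Penk turned positive with sample quality weights (0.13), and was 0.024 without control replicate 1, 0.068 without MA replicate 1 and 0.027 without MA replicate 3, in a range of -0.20 to 0.068 over the libraries left out. That of Oprd1 turned positive with the weights (0.089) and without MA replicate 3 (0.13, in a range of -0.29 to 0.13), and that of Oprm1 turned negative without MA replicate 1 (-0.031, in a range of -0.031 to 0.23). A pseudocount of 0.1 gave 0.41 for Oprm1 and 0.69 for Oprk1, as a smaller offset stretches low values. The lowest adjusted p of a member was 0.0850, for Oprl1 with sample quality weights, and Pdyn and Oprl1 reached an unadjusted p-value under 0.05 with the weights and without MA replicate 3, as did Oprl1 with the length correction. The count of 35 called genes was 3 with no filter, 586 with the weights and 15 with the replicate block, and without control replicates 1, 2 and 3 or MA replicates 1, 2 and 3 it was 3, 0, 0, 15, 0 and 257. The count of called pathway genes, 1, was 0 with a pseudocount of 0.1 and with no filter, 3 with the weights and 0 to 1 with a library left out. The causes were not tested. Libraries with the same replicate number did not deviate together (correlations of -0.20, -0.24 and -0.34). This cannot settle whether the numbers pair the mice, since the libraries also deviate with exonic length to differing degrees. With the replicate block the call of no opioid gene changed and the count of called opioid genes was 0. Unknown depth limits what can be said of Oprm1 and Oprk1.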

Other observations

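Among the degrading enzymes, Ece1, which can cut neuropeptides besides endothelin, had the widest spread and was singled out after its values were seen. It was at 6.27, 6.15 and 7.86 in the control and at 8.99, 8.01 and 2.98 in the MA libraries, an SD of 0.95 and 3.23 (n = 3 each), with a difference of -0.095 (limma adjusted p = 0.992).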
